A study of Mus musculus with 12 samples.

Results

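The anaphase-promoting complex (APC/C) and its direct regulators were followed at the RNA level in germinal vesicle (GV) stage mouse oocytes with and without LSM14B, an oocyte RNA-binding protein. The gene set was chosen by name and held 10 of the 24259 gene symbols measured. It comprised 7 subunits (*Anapc1*, *Anapc4*, *Anapc10*, *Cdc16*, *Cdc23*, *Cdc26* and *Cdc27*), 2 coactivators (*Cdc20* and *Fzr1*) and 1 inhibitor (*Fbxo5*, which encodes EMI1). The study had already reported higher *Fbxo5* and lower *Anapc10* and *Cdc26* mRNA in total RNA of GV-stage oocytes without LSM14B. Those changes came from other libraries than the ones used here, but the choice was not blind to them. Oocytes came from 3-week-old mice on a C57BL/6J background, 46 h after an injection of 5 IU PMSG, a hormone that drives follicle growth. Wild-type (WT) mice were compared with *Lsm14b*-KO mice, which were homozygous for the tm1a(KOMP)Mbp allele. That allele is a reporter-tagged insertion carried by the whole animal, so the somatic cells of the follicle carry it as well as the oocyte. Oocyte lysates were spun through a sucrose gradient, and RNA was taken from a ribonucleoprotein (RNP) pool of fractions 1 to 10, which holds mRNA with few or no ribosomes, and from a polysome pool of fractions 11 to 28, which holds mRNA loaded with ribosomes. Each of the 4 groups (WT RNP, WT polysome, KO RNP and KO polysome) had 3 libraries of pooled oocytes. The labels do not say whether these were separate sets of mice, so each p-value measures only the spread between these libraries.

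The APC/C is a ubiquitin ligase that marks securin and cyclin B for destruction, which lets chromosomes separate and cells leave M phase. It needs a coactivator to recognize its substrates: FZR1 (CDH1) serves the complex in oocytes held at the GV stage and early after resumption of meiosis, and CDC20 serves it at anaphase onset. EMI1 binds the complex and blocks it, and in oocytes it helps cyclin B to accumulate on entry into the first meiotic division. A fully grown oocyte does not transcribe its genes, so it relies on stored mRNA that is moved onto ribosomes in a set order. The comparison of KO with WT asks whether the stored and the ribosome-loaded mRNAs of this machinery differ when LSM14B is missing.

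Levels are given in FPKM, fragments per kilobase of transcript scaled to the mapped fragments of the library, as deposited. FPKM is a share of each library, so it does not tell how much RNA a pool held, and fewer molecules of an mRNA cannot be told apart from more of the others. *Lsm14b* itself was at 34.6, 29.3 and 27.4 FPKM in WT RNP and at 0.893, 0.0627 and 0 FPKM in KO RNP. In the polysome pools it was at 11.3, 15.3 and 13.2 FPKM in WT and at 0.26, 0 and 0.0876 FPKM in KO. The estimated depth was 4840000 to 7860000 fragments per library, read from the smallest steps between low FPKM values. One library stood apart: in KO polysome replicate 2 the 10 most abundant genes took 34.7% of the summed FPKM, against 11.6 to 14.7% in the other 11 libraries. All 10 oocyte markers examined were present in every group, but several differed between KO and WT. In the RNP pool 5 were called higher and 1, *Mos*, lower (limma), where 10.5% and 10.2% of all genes tested were. In the polysome pool 4 were called higher and 1, *Mos*, lower, where 5.64% and 4.73% were. *Nobox* was at 309, 344 and 350 FPKM in WT RNP and at 1567, 1493 and 1415 FPKM in KO RNP. The summed FPKM of 14 granulosa and cumulus cell markers ranged from 31.4 to 37.2 in WT RNP libraries, from 43.2 to 69.7 for KO RNP, from 28.2 to 76.5 for WT polysome and from 79.3 to 106 for KO polysome. Of these 14 markers, 7 were at 0 in all 3 libraries of WT RNP, 1 in KO RNP, 5 in WT polysome and 4 in KO polysome. Between KO and WT, *Inha* was called higher in the RNP pool, and *Fshr*, *Inha* and *Inhba* in the polysome pool (limma). *Inha*, which encodes an inhibin subunit made by granulosa cells, was at 0, 0.24 and 0 FPKM in WT RNP and at 11.0, 6.03 and 3.80 FPKM in KO RNP. In polysomes it was at 9.58, 0 and 8.11 FPKM in WT and at 51.4, 39.4 and 39.5 FPKM in KO. The granulosa cell marker *Cyp19a1* was at 14.6 to 61.9 FPKM over the 12 libraries, while *Amh*, *Foxl2* and *Cyp11a1* were among the 7 at 0 in WT RNP. In polysomes *Cyp19a1* was at 61.9, 19.0 and 32.0 FPKM in WT and at 14.6, 23.5 and 34.5 FPKM in KO, with overlap. *Cyp11a1* was at 0.838, 0.702 and 0.644 FPKM in WT polysome and at 0.097, 0 and 0 FPKM in KO polysome. So not every somatic marker was higher in KO. The part of these markers in the results was not tested.

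*Fbxo5* had the highest level of the 10 genes in every group, and *Cdc23* the lowest. Among genes with at least 1 FPKM in at least 3 of the 12 libraries, 10949 in all, the *Fbxo5* mean exceeded that of 95.0% of genes in WT RNP, 92.5% in WT polysome, 97.4% in KO RNP and 95.0% in KO polysome. The gene ranked next was *Cdc20* in both RNP pools and *Fzr1* in both polysome pools, and in each group its range did not reach that of *Fbxo5*. *Cdc27*, a subunit of the arm of the complex that binds coactivators, had the highest mean of the 7 subunits in the set in every group, with means of 32.7 ± 4.10, 24.3 ± 6.86, 30.2 ± 3.28 and 27.0 ± 10.5 FPKM (SD, n = 3) in WT RNP, WT polysome, KO RNP and KO polysome. In WT RNP its range overlapped that of *Cdc26*, a small subunit of the same arm, and that of *Cdc26* overlapped that of *Fzr1*. *Anapc1* and *Cdc16*, a scaffold subunit and another subunit of the coactivator-binding arm, lay between 1.41 and 7.53 FPKM in all libraries, and their ranges overlapped each other in each group. *Cdc23* did not exceed 1.11 FPKM in any library and was at 0 in WT RNP replicate 3 and KO polysome replicate 3. It did not pass the filter on low values, so 9 of the 10 genes were tested. *Cdc23* also shares 1271 exon bases with *Kif20a* on the opposite strand, and whether strand was used in counting was not given in the sources used here.

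**Figure D1:**
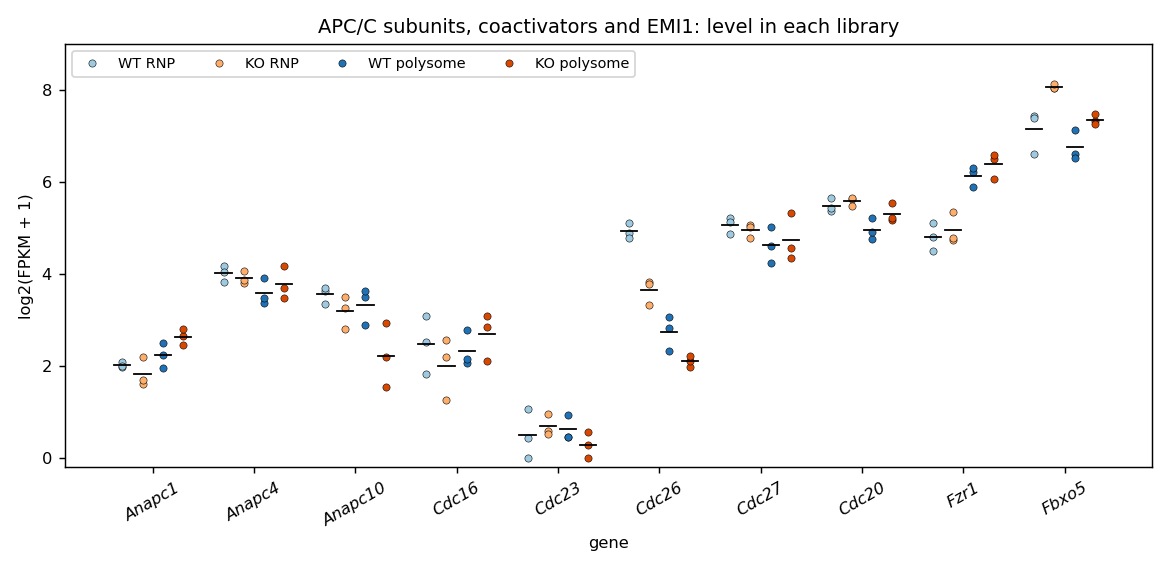
Level of each of the 10 genes, as log2(FPKM + 1), in every library of the WT RNP, KO RNP, WT polysome and KO polysome pools. Points are libraries (n = 3 per group) and bars are group means; *Fbxo5* is highest throughout, with all 3 KO RNP libraries between 262 and 279 FPKM, and *Cdc26* spans 2.97 to 33.4 FPKM.

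The ends of the mRNAs differ within the set. In oocytes, cytoplasmic polyadenylation elements (CPE) close to the polyadenylation signal control when a stored mRNA is translated. The letters TTTTAT or TTTTAAT (CPE) and AATAAA or ATTAAA (polyadenylation signal) were searched on the transcript strand only, in the last 100 bases of the 3′ UTR of 1 GENCODE transcript per gene, or in the whole 3′ UTR where it was shorter. A CPE was found in 2 of the 10 genes, *Cdc20* and *Fbxo5*, against 19.6% of 10011 expressed genes. A polyadenylation signal was found in 8 of the 10, all but *Anapc10* and *Fzr1*, against 81.0% of those genes. Among these transcripts *Cdc20* had the shortest 3′ UTR, 62 bases, and *Anapc10* the longest, 3897 bases, against a median of 985 bases over the expressed genes. The deposited gene positions can end elsewhere: *Anapc10* ends at 79777321 there and at 79779059 in GENCODE, and *Anapc4* at 52866734 and 52867797. The 3′ UTRs searched may therefore not be those behind the FPKM values. The hexamer CCTCTC, which the study's mapping of LSM14B binding pointed to, was found anywhere in the 3′ UTR in 4 of the 10 genes, *Anapc10*, *Cdc23*, *Cdc27* and *Fzr1*, against 37.1% of expressed genes. It was absent from the annotated 3′ UTRs of *Anapc1*, *Anapc4*, *Cdc16*, *Cdc26*, *Cdc20* and *Fbxo5*. The 4 genes with the hexamer had 3′ UTRs of 1287 to 3897 bases, and those without it had 62 to 2844 bases. The study placed most LSM14B binding sites outside 3′ UTRs, and its measured sites are not used here. A match, or the absence of one, is a description of the letters and not a test of binding or use.

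The 30-base stretches below are shown because *Cdc20* and *Fbxo5* carry the CPE letters and *Cdc26*, the subunit with the largest change, does not. Each is read 5′ to 3′ along the mRNA, from GENCODE transcripts on the minus strand of GRCm38, in the annotated 3′ UTR. Capitals mark the CPE and polyadenylation signal letters, and the pair of CPE in *Cdc20* overlap. The sites lie at chr4:118432916-118432945 (*Cdc20*), chr10:5799219-5799248 (*Fbxo5*) and chr4:62394590-62394619 (*Cdc26*).
Cdc20: cttgtTTTTATTTTATtttttctAATAAAg
Fbxo5: gttttTTTTATatctgtgaatacctgtttt
Cdc26: tttttgtttttaaaAATAAAtttatttttg

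Within the set, genes were called between KO and WT oocytes in the RNP pool alone. There *Fbxo5* rose and *Cdc26* fell, while the other 7 tested genes did not pass the test. The polysome-to-RNP ratio, given below, was not called for any gene of the set, so these changes were not shown to differ between the pools. Tests used limma on log2(FPKM + 1) over all genes past the filter, with Benjamini-Hochberg adjustment, and a gene was called at an adjusted p below 0.05. Thus 2 of 9 tested genes were called, where 20.7% of all 9931 genes tested in this comparison were called, so the share called among the set was near that of the whole table. The median log2 change was -0.11 for the 9 genes and 0.05 for all genes tested.

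*Fbxo5* (chromosome 10, 5799160 to 5805600, GRCm38) was at 171, 168 and 96.5 FPKM in WT RNP and at 265, 262 and 279 FPKM in KO RNP. Every KO library lay above every WT library, as in 20.7% of all genes tested, and WT RNP replicate 3 lay well below the other two WT libraries. The log2 change was 0.93 ± 0.20 (SE, 95% interval 0.48 to 1.37, limma adjusted p = 0.0109), a ratio of means of 1.85. Without WT RNP replicate 3 the log2 change was 0.66 and the call held (limma adjusted p = 0.00265). A fit in which the variance did not depend on the expression level ended the call (limma adjusted p = 0.0622).

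*Cdc26* (chromosome 4, 62383654 to 62408642) was at 28.9, 33.4 and 26.7 FPKM in WT RNP and at 13.2, 12.8 and 9.02 FPKM in KO RNP. The groups did not overlap, which held for 18.4% of all genes tested in the lower direction. The log2 change was -1.28 ± 0.22 (SE, 95% interval -1.78 to -0.79, limma adjusted p = 0.00396), a ratio of means of 0.394. These levels stand on an estimated 109 to 137 fragments per WT RNP library and 37 to 62 per KO RNP library. No other subunit followed it past the threshold: *Anapc10*, a substrate-recognition subunit, had a log2 change of -0.38 (limma adjusted p = 0.385), and the other 4 tested subunits lay between -0.47 (*Cdc16*) and -0.11 (*Anapc4* and *Cdc27*).

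The coactivators did not pass the test in the RNP pool. *Cdc20* was at 49.2, 40.4 and 42.3 FPKM in WT RNP and at 48.4, 49.0 and 44.0 FPKM in KO RNP, and the groups overlapped. Its log2 change was 0.10 with a 95% interval of -0.23 to 0.43. *Fzr1* was at 21.8, 27.1 and 33.7 FPKM in WT RNP and at 25.9, 26.7 and 39.9 FPKM in KO RNP, and its log2 change was 0.15 with a 95% interval of -0.37 to 0.68. These intervals leave room for moderate differences either way. *Cdc20* and *Fzr1* share 53 and 4 exon bases with genes on the opposite strand, *Elovl1* and *Mfsd12*, and reads there cannot be told apart if strand was not used.

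In the polysome pool no gene of the set was called between KO and WT (0 of 9, limma), where 10.4% of all 9536 genes tested were called. At an unadjusted limma p below 0.05, 2 of the 9 stood out, *Fbxo5* and *Anapc10*, where 2505 of the 9536 genes did. The median log2 change was 0.24 for the 9 genes and 0.10 for all genes tested.

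*Fbxo5* was at 97.3, 139.6 and 90.4 FPKM in WT polysome and at 159, 153 and 178 FPKM in KO polysome. Every KO library again lay above every WT library, as in 18.2% of all genes tested. The log2 change was 0.60 ± 0.19 (SE, 95% interval 0.18 to 1.02, ratio of means 1.50), and it did not pass the threshold (limma adjusted p = 0.0752). Leaving out WT polysome replicate 2, the highest WT library, gave 0.79 and a call (limma adjusted p = 0.0246), and leaving out KO polysome replicate 2 gave 0.65 without one (limma adjusted p = 0.161).

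*Anapc10* was at 10.3, 6.38 and 11.3 FPKM in WT polysome and at 3.62, 1.93 and 6.65 FPKM in KO polysome. Only KO replicate 3 and WT replicate 2 crossed, by a narrow margin. Its log2 change was -1.11 ± 0.48 (SE, 95% interval -2.20 to -0.01, limma adjusted p = 0.186), and without KO polysome replicate 2 it was -0.76 (limma adjusted p = 0.449). *Cdc26* was at 4.00, 6.08 and 7.35 FPKM in WT polysome and at 2.97, 3.31 and 3.69 FPKM in KO polysome, which did not overlap, as in 13.4% of all genes tested in that direction. Its log2 change of -0.63 (95% interval -1.58 to 0.32, limma adjusted p = 0.384) rests on an estimated 11 to 36 fragments per library.

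Both coactivators had overlapping groups in the polysome pool. *Cdc20*, which the complex uses at anaphase onset, was at 26.0, 36.1 and 29.2 FPKM in WT and at 45.7, 35.4 and 36.2 FPKM in KO. The log2 change of *Cdc20* was 0.36 with a 95% interval of -0.16 to 0.87 (limma adjusted p = 0.361). *Fzr1* was at 58.0, 74.0 and 78.6 FPKM in WT and at 89.3, 66.2 and 95.5 FPKM in KO, with a log2 change of 0.24 and a 95% interval of -0.22 to 0.71. The larger subunits *Anapc1*, *Anapc4*, *Cdc16* and *Cdc27* had log2 changes of 0.40, 0.20, 0.35 and 0.12, with standard errors of 0.33 to 0.46. The direction for *Cdc27* turned without KO polysome replicate 3 (-0.17) or without WT polysome replicate 1 (-0.07).

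The polysome-to-RNP ratio, tested as the interaction of pool and genotype, passed for 0 of the 9 genes (limma), where 0.237% of all 10949 genes tested were called. None of the 9 had an unadjusted limma p below 0.05, where 1220 of all genes did. The change of the log2 ratio was -0.33 for *Fbxo5* (95% interval -0.96 to 0.31, limma adjusted p = 0.742), 0.66 for *Cdc26* (-0.22 to 1.54, limma adjusted p = 0.592) and -0.73 for *Anapc10* (-1.89 to 0.44, limma adjusted p = 0.672). *Cdc20* stood at 0.25 (-0.29 to 0.80) and *Fzr1* at 0.09 (-0.60 to 0.79). The widths of these intervals show that a difference in ratio between genotypes was not detectable here unless it was large.

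**Figure D2:**
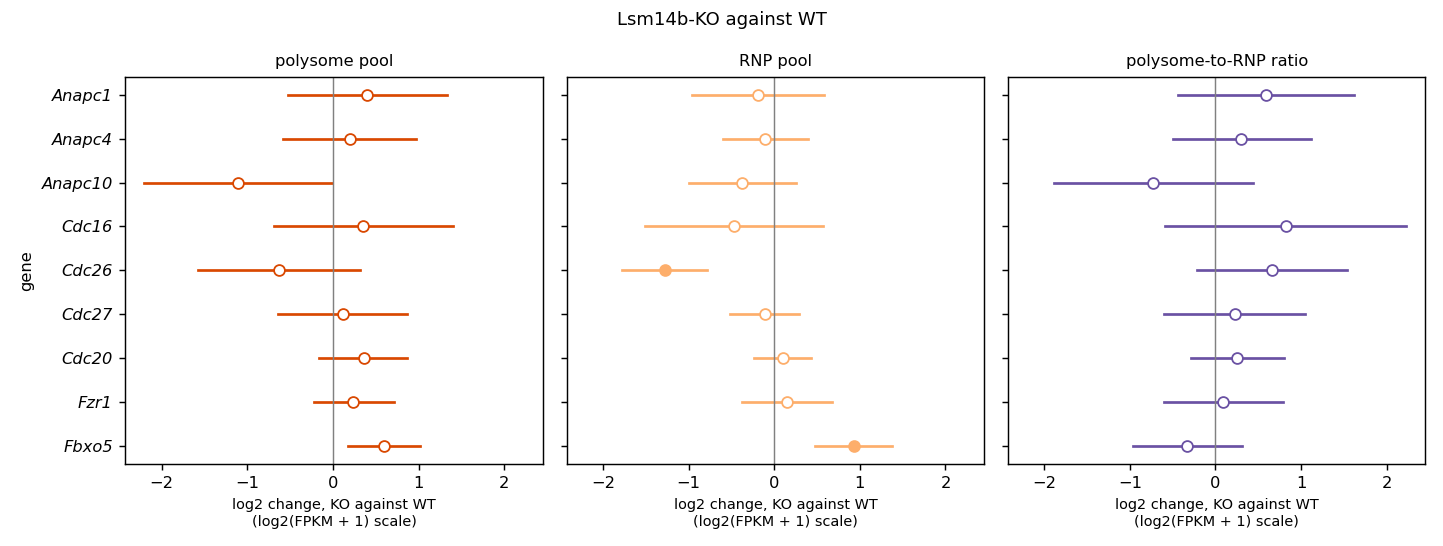
Log2 change of KO against WT, on the log2(FPKM + 1) scale, for the 9 tested genes, with a panel for the polysome pool, for the RNP pool and for the ratio of polysome to RNP. Points are limma estimates, lines are 95% intervals and filled points passed the adjusted threshold: only *Cdc26* (-1.28) and *Fbxo5* (0.93) in the RNP pool are filled.

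Within a genotype, *Fzr1* stood higher and *Cdc26* lower in the polysome pool than in the RNP pool, in WT and in KO oocytes. These comparisons use the same libraries as the comparisons between genotypes, so they are not independent of them. In WT oocytes 2 of 9 genes were called, where 14.7% of all 9574 genes tested were, and in KO oocytes 3 of 9, where 29.2% of all 9851 were.

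*Fzr1* (chromosome 10, 81366222 to 81378516) rose from 27.5 ± 5.96 FPKM in the RNP pool to 70.2 ± 10.8 FPKM in the polysome pool of WT oocytes (SD, n = 3). In KO oocytes it rose from 30.9 ± 7.87 to 83.7 ± 15.4 FPKM. The log2 changes were 1.33 ± 0.23 in WT (SE, limma adjusted p = 0.00708) and 1.42 ± 0.21 in KO (SE, limma adjusted p = 0.00102), and in both genotypes the pools did not overlap. That pattern in the higher direction was seen in 16.7% of all genes tested in WT and 22.5% in KO. *Fzr1* is thus the one gene of the 9 that was called higher among ribosome-loaded mRNAs in each genotype.

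*Cdc26* fell from 29.7 ± 3.40 to 5.81 ± 1.69 FPKM in WT oocytes and from 11.7 ± 2.32 to 3.32 ± 0.357 FPKM in KO oocytes (SD, n = 3). The log2 changes were -2.20 ± 0.33 in WT (SE, limma adjusted p = 0.0032) and -1.54 ± 0.28 in KO (SE, limma adjusted p = 0.00328). *Fbxo5* fell in KO oocytes, by 0.72 ± 0.10 on the log2 scale (SE, limma adjusted p = 0.000726), from 268 ± 8.99 to 163 ± 13.1 FPKM. The pools of KO oocytes did not overlap for *Cdc26* or *Fbxo5*, as in 21.7% of all genes tested in that direction. In WT oocytes its change was -0.39 (limma adjusted p = 0.359) with overlapping pools, and the difference between the genotypes is the ratio test above, which did not pass.

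*Cdc20* (chromosome 4, 118432901 to 118437352) had a log2 change of -0.53 ± 0.22 between the pools of WT oocytes (SE, limma adjusted p = 0.152), with no overlap between them. That pattern in the lower direction was seen in 17.9% of all genes tested. A single fit over all 12 libraries called it (limma adjusted p = 0.0491). In KO oocytes the change was -0.27 (limma adjusted p = 0.233). Among the other subunits, *Anapc1* in KO oocytes stood at 2.08, 3.60 and 2.25 FPKM in the RNP pool and at 5.26, 4.53 and 6.04 FPKM in the polysome pool. These pools did not overlap, as in 22.5% of all genes tested in that direction. The log2 change of *Anapc1* was 0.80 ± 0.32 and did not pass (SE, limma adjusted p = 0.0945), except in the fit without an intensity trend (limma adjusted p = 0.042). *Anapc10* had -0.96 in KO oocytes (limma adjusted p = 0.104) and was called without KO polysome replicate 3 (-1.31, limma adjusted p = 0.0313). *Anapc4* and *Cdc27* lay between -0.44 and -0.13 in both genotypes, and *Cdc16* at -0.14 in WT and 0.68 in KO.

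**Figure D3:**
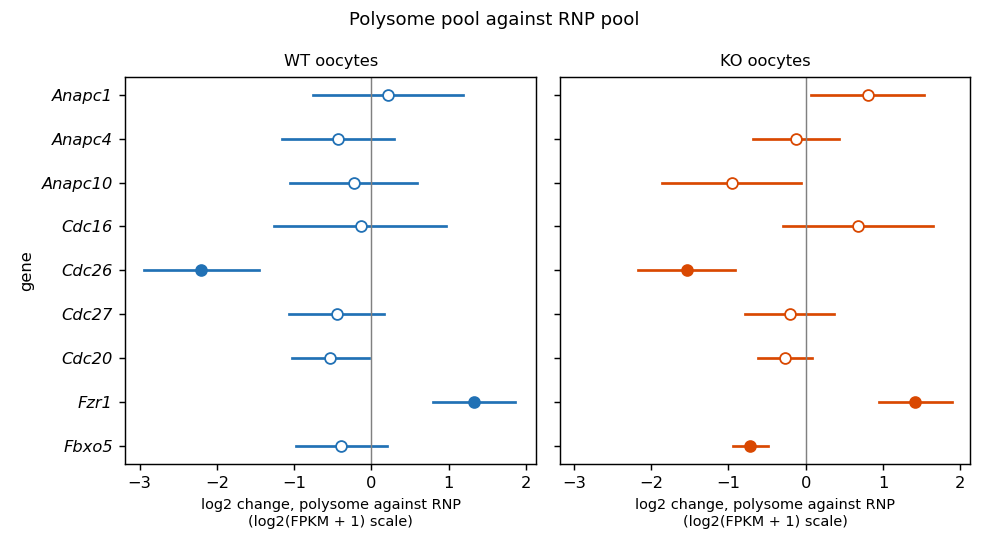
Log2 change of the polysome pool against the RNP pool, on the log2(FPKM + 1) scale, in WT and in KO oocytes for the 9 tested genes. Points are limma estimates, lines are 95% intervals and filled points passed the adjusted threshold: *Fzr1* is to the right and *Cdc26* to the left in both genotypes, and *Fbxo5* (-0.72) is filled in KO alone.

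The mRNA level of the inhibitor beside those of the coactivators was described as a ratio of FPKM within each library, with no test. It is a ratio of mRNA shares and does not measure the balance of the proteins. *Cdc20* was not called in the RNP pool (log2 change 0.10), so a higher *Fbxo5* over *Cdc20* there mostly restates the rise of *Fbxo5*. *Fbxo5* over *Cdc20* was 3.48, 4.16 and 2.28 in WT RNP and 5.46, 5.35 and 6.34 in KO RNP, without overlap. *Fbxo5* alone did not overlap there either, as in 20.7% of all genes tested in that direction. In the polysome pool the same ratio was 3.74, 3.87 and 3.10 in WT and 3.47, 4.33 and 4.92 in KO, and these overlapped. *Fbxo5* over *Fzr1* was 7.87, 6.20 and 2.87 in WT RNP and 10.2, 9.80 and 6.98 in KO RNP, with an overlap. In the polysome pool it was far smaller in both genotypes, at 1.15 to 1.89 in WT and 1.78 to 2.31 in KO. The summed FPKM of the 7 subunits of the set ranged from 88.7 to 104 over WT RNP libraries and from 62.7 to 79.0 over KO RNP libraries. *Cdc26* alone made up 18.0 of the 26.2 FPKM between the group means. This sum is not that of the whole complex, since it leaves out the 7 remaining APC/C subunits. Between KO and WT RNP none of those was called (limma). Of them 4 rose and 3 fell, with a median log2 change of 0.14.

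**Figure D4:**
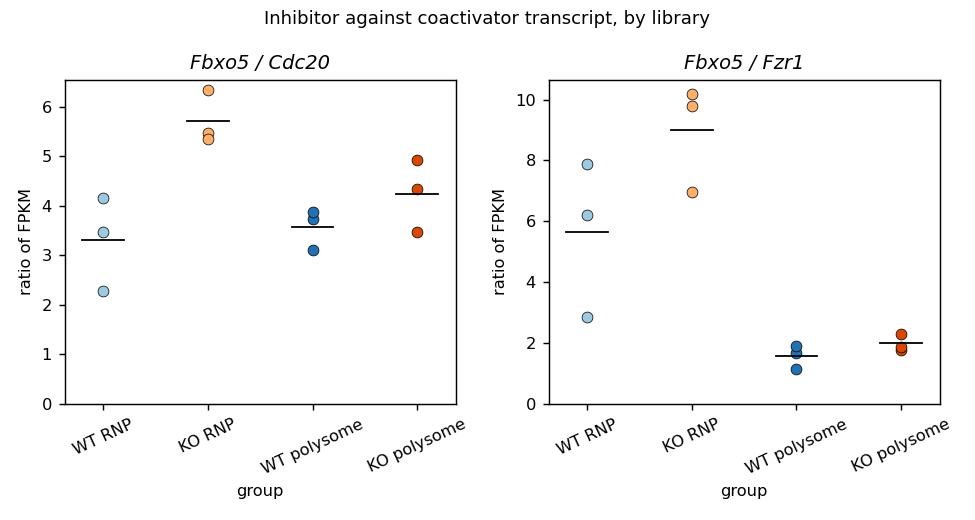
Ratio of *Fbxo5* FPKM to *Cdc20* FPKM and to *Fzr1* FPKM in each library of the 4 groups, on linear axes that start at 0. Points are libraries (n = 3 per group) and bars are group means; *Fbxo5* over *Cdc20* spans 5.35 to 6.34 for KO RNP against 2.28 to 4.16 for WT RNP.

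Around this core, 28 other genes of the pathway were examined in 5 lists: the remaining APC/C subunits (7), ubiquitin-conjugating partners (4), inhibitors and checkpoint partners (6), degraders of EMI1 (2) and substrates (9). All 28 passed the filter. In the RNP pool 7 were called higher and 4 lower in KO than in WT (limma), where 10.5% of all genes tested were called higher and 10.2% lower. For polysomes 3 were called higher and 1 lower (limma), where 5.64% of all genes tested were called higher and 4.73% lower. For the polysome-to-RNP ratio 0 of the 28 were called (limma), and 7 had an unadjusted p below 0.05, where 0.237% of all 10949 genes tested were called and 1220 had such a p. The median log2 change of the 28 was 0.19 for RNP and 0.13 for polysomes, beside 0.05 and 0.10 over all genes tested.

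EMI2, encoded by *Fbxo43*, is the relative of EMI1 that holds the egg at metaphase II, and its mRNA went the other way from *Fbxo5*. *Fbxo43* was at 78.1, 80.5 and 82.6 FPKM in WT RNP and at 43.0, 37.3 and 30.1 FPKM in KO RNP, a log2 change of -1.12 (limma adjusted p = 0.0016). Both degraders of EMI1, *Btrc* and *Fbxw11*, did not pass between genotypes in either pool. For *Fbxw11* the log2 change was 0.83 in RNP and 1.39 in polysomes (limma adjusted p = 0.0747 and 0.0743). Its KO libraries lay above its WT libraries in both pools, as in 20.7% and 18.2% of all genes tested. For *Btrc* the log2 change was -0.05 in RNP and 0.51 in polysomes (limma adjusted p = 0.903 and 0.318), with overlap. Among the substrates in the RNP pool, *Ccnb2* (0.87), *Pttg1*, which encodes securin (0.82), and *Nek2* (0.66) rose on the log2 scale, while *Gmnn* (-1.03) and *Ccnb1*, which encodes cyclin B1 (-0.57), fell. *Ccnb1* was at 487, 562 and 564 FPKM in WT RNP and at 365, 359 and 356 FPKM in KO RNP (limma adjusted p = 0.00171). The ubiquitin-conjugating partners *Ube2d1* (1.23) and *Ube2d3* (0.83) and the checkpoint genes *Bub3* (0.48) and *Mad2l1* (0.43) rose there, and *Bub1b* (-0.70) fell.

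In the polysome pool *Ube2d3* (0.66), *Plk1*, a kinase that primes EMI1 for destruction (0.64), and *Bub3* (0.61) rose and the small subunit *Anapc16* (-0.84) fell on the log2 scale. None of these 4 calls held under every alternative, whereas 5 of the 11 in the RNP pool did: *Bub1b*, *Ccnb2*, *Fbxo43*, *Gmnn* and *Ube2d3*. *Anapc11*, the RING subunit that contacts the ubiquitin-conjugating enzyme, had the largest change of ratio between genotypes among the 7 remaining subunits. It was at 16.4 to 21.1 FPKM in WT RNP, 48.9 to 64.1 in WT polysome, 26.1 to 32.0 in KO RNP and 35.1 to 38.6 in KO polysome. Its log2 ratio changed by -1.17 ± 0.25 (SE) and did not pass over all genes (limma adjusted p = 0.0912). *Anapc7* went the other way, with a change of log2 ratio of 1.02 ± 0.25 (SE), and did not pass either (limma adjusted p = 0.13).

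**Figure D5:**
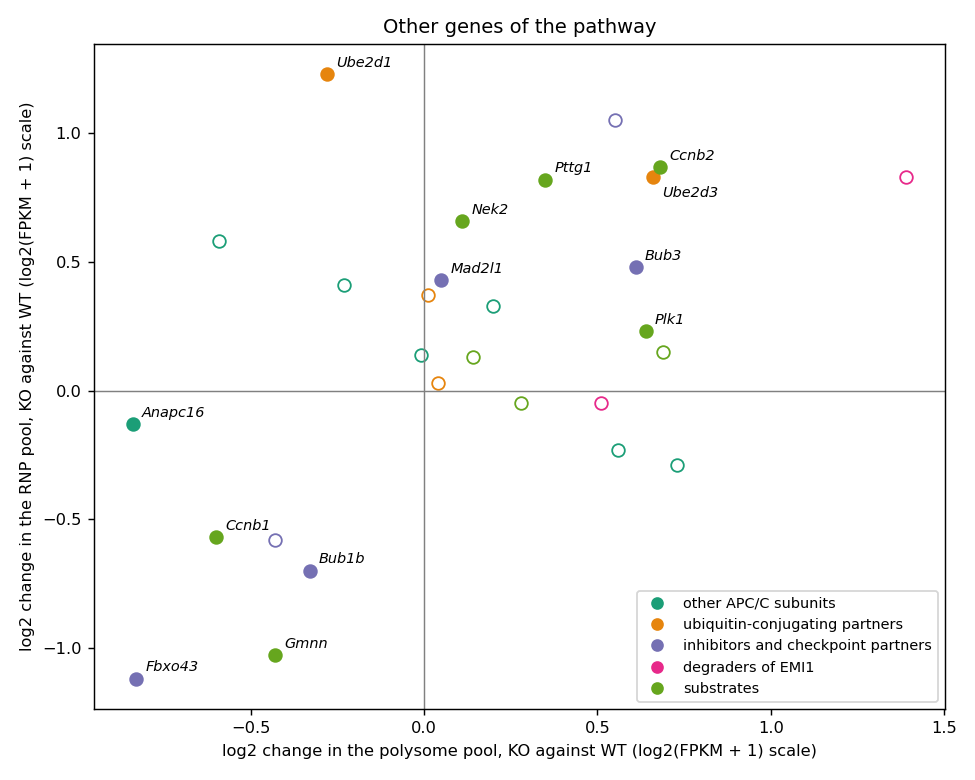
Log2 change of KO against WT in the polysome pool (horizontal axis) and in the RNP pool (vertical axis), on the log2(FPKM + 1) scale, for the 28 other pathway genes, colored by list. Filled and named points passed the adjusted threshold in at least 1 of the pools; *Fbxo43* lies lowest on the vertical axis at -1.12 and *Ube2d1* highest at 1.23.

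Between the pools, 5 of the 28 stood higher and 3 lower in the polysome pool of WT oocytes, and 10 higher and 5 lower in that of KO oocytes (limma). Over all genes tested 7.97% were called higher and 6.72% lower in WT, and 15.5% higher and 13.8% lower in KO. *Pttg1* was far higher among ribosome-loaded mRNAs in both genotypes, with log2 changes of 2.36 in WT and 1.89 in KO. *Ccnb1*, the other main target of the complex at anaphase, fell by 0.58 in WT and by 0.60 in KO. Among the remaining subunits, *Anapc11* (1.52) and *Anapc16* (0.99) rose in WT, and *Anapc7* (1.13) rose and *Anapc5* (-1.29) fell in KO. *Ube2d3* rose by 1.68 in WT and 1.50 in KO and *Nek2* by 1.57 and 1.02, while *Bub1b* fell by 0.75 and 0.39 and *Ccna2*, which encodes cyclin A2, by 0.99 and 0.66. In KO oocytes the degraders of EMI1 *Fbxw11* (1.30) and *Btrc* (0.96) and the substrates *Tpx2* (0.96), *Ccnb2* (0.61), *Plk1* (0.52) and *Aurka* (0.42) also rose, and the ubiquitin-conjugating enzyme *Ube2c* (-0.45) fell. Of these calls, 4 of 8 in WT and 9 of 15 in KO held under every alternative.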

How the data were processed

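The authors deposited FPKM values per gene for 12 libraries. Per the labels and the study's methods, reads were mapped to mm10 with TopHat2 2.0.13 and quantified with Cufflinks 2.2.1; the annotation release is not given in the sources used here. The authors' own comparison columns (log2 changes, p-values and q-values) were not used. Replicates were compared as deposited, and correlated at r = 0.883 to 0.962 within groups.

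Genes with at least 1 FPKM in at least 3 libraries of a comparison were tested on log2(FPKM + 1) with limma 3.58.1 in R 4.3.3 (intensity trend, two-sided, Benjamini-Hochberg adjustment over all genes tested), each contrast on its own 6 libraries and the ratio on all 12. A fold change on this scale understates the change of low genes. The procedure was tested on simulated data. The files hold no counts: depth and fragments were estimated from the smallest steps between low FPKM values (transcript length less 200 bases) and are approximate. Positions and 3′ UTRs came from GENCODE M21 (GRCm38).

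The genes and the pathway lists were chosen with earlier results of the study known. The study's reported changes in KO oocytes include *Fbxo5*, *Anapc10* and *Cdc26* of the set and *Bub3*, *Ccnb2*, *Plk1* and *Tpx2* of the lists. They were measured in total RNA of other libraries and not in the RNP and polysome pools. The shares called among these genes are therefore not those of genes chosen blind. All 10 genes are named; of the 28 pathway genes, those called in a comparison are named. The polysome-to-RNP ratios of *Anapc11* and *Anapc7*, and the changes of *Fbxw11* between genotypes, were singled out after their values were seen. Same-numbered libraries did not deviate together (r -0.0207 to 0.0255 over 10949 genes), so numbers were not used as pairs. Alternatives covered the pseudocount, filter, scaling, intensity trend, a replicate block, one fit over all libraries and leaving out each library.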

Additional observations from a re-analysis of the deposited data

How the results depend on the processing

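Of 711 recomputed changes of the 9 tested genes, 696 kept their direction and side of the threshold. In the polysome pool 0 genes were called between KO and WT, with a range of 0 to 1 on leaving out 1 library (*Fbxo5*, without WT polysome replicate 2). In the RNP pool 2 were called, with a range of 2 to 2 on leaving out 1 library and 1 (*Cdc26*) without the intensity trend. The direction turned on leaving out 1 library for *Cdc27* in polysomes (range -0.17 to 0.32), *Fzr1* in RNP (-0.04 to 0.30), the ratios of *Cdc27* (-0.06 to 0.43) and *Fzr1* (-0.06 to 0.29), *Cdc16* between WT pools (-0.46 to 0.16) and *Anapc4* between KO pools (-0.32 to 0.02). None of these was called, and the cause was not tested.

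With the replicate number as a block, the calls in the set stayed at 0 for polysomes, at 2 for RNP, at 0 for the ratio, and at 2 and 3 for polysome against RNP in WT and KO oocytes, while over all genes the ratio calls went from 26 to 0. Over all genes, the calls ranged from 383 to 1843 in the polysome pool (989 as reported) and from 1255 to 2173 in the RNP pool (2057). Rescaling the libraries to the same median moved the median log2 change of all genes from 0.10 to 0.12 in the polysome pool and from 0.05 to 0.11 in the RNP pool. Of the 38 pathway calls, 20 were lost under at least 1 alternative and none reversed. Low levels limit *Cdc23*, *Cdc26* in polysomes, *Anapc1* and *Cdc16*.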

Other observations

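The genes whose 4 group means came closest to those of *Fbxo5*, after centring each gene's log2 means, were *Matr3* and *Ina*, with root mean square differences of 0.0318 and 0.0417 over the 4 groups. The search covered 6677 genes whose mean reached 5 FPKM. For *Cdc20* they were *Lrrc59* (0.0101) and *Ppp1r9b* (0.0136), and for *Anapc10* they were *Grm2* (0.0248) and *Prr3* (0.0402). With 4 points per gene and so many genes compared, such closeness is a description and not a sign of a shared role.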
